A study of Homo sapiens with 15 samples.

Results

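The unfolded protein response and the folding machinery of the endoplasmic reticulum (ER) were examined in LNCaP cells as a list of 33 genes. The genes were taken by name, with earlier results of these data known. Of the 33 genes, 32 had a row in the deposited expression table of 17272 genes, and TXNDC5 was not analysed here. The genes fell into 4 arms: 5 sensors and their effectors, 11 chaperones and cofactors, 8 genes of oxidative folding and 8 of ER-associated degradation. LNCaP cells come from a human prostate cancer, respond to androgen and secrete PSA. RNA was sequenced from 15 libraries, 5 of cells given R1881 with darolutamide (titled R1881_Darolutamide, and called the combination here) and 10 of cells given R1881 with the solvent (R1881_DMSO). R1881 is a synthetic androgen and darolutamide an antiandrogen. All cells of both groups were first kept for 2 days in charcoal-stripped serum, which is poor in steroids, and were treated for 22 h with 1 nM R1881, with or without 2 µM darolutamide. The concentration of R1881 and the group sizes follow the sample labels, while the methods of the study give a different concentration and swap the group sizes. A group without androgen was not analysed here.

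The ER folds proteins that enter the secretory pathway. When unfolded proteins accumulate, sensors in its membrane start the unfolded protein response: IRE1α (the product of ERN1) splices the mRNA of the transcription factor XBP1, PERK (the product of EIF2AK3) phosphorylates eIF2α and slows translation, and ATF6 and ATF6B are cut in the Golgi apparatus to release transcription factors. The targets of these factors are chaperones led by BiP (the product of HSPA5), enzymes that form and rearrange disulfide bonds, and the machinery that extracts misfolded proteins to the cytosol for degradation. Luminal cells of the prostate are secretory, and androgen is known to regulate parts of their secretory programme.

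The libraries held 21870398 to 25317567 reads with the combination and 15830745 to 24316740 with R1881. Values are read counts divided by 1 factor per library, as deposited, and are called CPM here. The values of a library summed to 1005403 to 1031224 with the combination and to 1053406 to 1078567 with R1881. They are therefore not scaled to library totals, and results with that scaling are given at the end. Values were tested with limma on log2(CPM + 0.5), and called where the p-value adjusted over all genes was under 0.05. A fold change is a log2 difference on that scale, combination minus R1881, and "lower" and "higher" describe the combination. The PSA gene KLK3, which androgen induces, had a mean of 615 ± 55.9 CPM (SD, n = 5) with the combination and 1588 ± 209 CPM (SD, n = 10) with R1881, and FKBP5, another androgen-induced gene, had 152 ± 11.1 with the combination and 1502 ± 87.4 CPM with R1881. All 5 androgen-regulated genes examined as a check were lower. Of the luminal markers, KRT8 and KRT18 were lower with the combination (log2 fold changes -2.10 and -1.82), EPCAM was higher (0.14), and HOXB13 (0.02) and CDH1 (0.07) were not called. Of the markers of other cells, KRT14 was the 1 of 3 basal genes with a row, at 0.528 to 0.878 CPM with the combination and 0.706 to 1.44 CPM with R1881, and no row was matched for the 4 leukocyte genes. The 3 of 6 fibroblast genes with a row summed to 13.5 to 30.6 CPM with the combination and 6.36 to 10.5 CPM with R1881, and VWF was the 1 of 3 endothelial genes, at 3.56 to 4.10 CPM with the combination and 2.08 to 2.84 CPM with R1881. All 3 fibroblast genes were called higher, where 22.8% of all genes were. COL3A1 rose the most (log2 fold change 1.92), from a mean of 1.84 CPM with R1881 to 8.19 CPM with the combination. VWF was called higher (0.50) and KRT14 lower (-0.43). The 20 genes of highest mean reads took 7.65% ± 0.25 (SD, n = 5) of the reads with the combination and 6.55% ± 0.12 (SD, n = 10) with R1881. Mitochondrially encoded genes took 3.59% ± 0.30 with the combination and 2.78% ± 0.12 with R1881. The part of these differences in the results was not tested, and in bulk libraries fewer cells of a type and less RNA per cell cannot be told apart. The library numbers of the descriptions form runs of 86 to 90 for the combination and of 71 to 75 and 51 to 55 for R1881, so that treatment and run cannot be told apart.

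Most of the ER genes were lower with the combination. In 28 of 32 the fall passed the test, where 23.7% of all genes were called lower, and the other 4 (ATF6, ATF6B, SDF2L1 and SEL1L) were not called. None was called higher, with 0 at an unadjusted p under 0.05 in limma and 0 called by edgeR or by DESeq2, where limma called 22.8% of all genes higher. In 23 of 32 genes the highest combination library was below the lowest R1881 library, as in 12.6% of all genes, and in 0 the lowest combination library was above the highest R1881 library, as in 10.8%. Log2 fold changes ran from -1.22 to 0.18 with a median of -0.45, where the median of all genes was 0.00. Falls of at least 0.5 on the log2 scale were found in 12 of the 32 (37.5%) and in 6.68% of all genes. Falls of at least 1 were found in 4, namely ERN1, DNAJB9, EDEM3 and PDIA5 (12.5%), and in 1.98% of all genes.

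**Figure D1:**
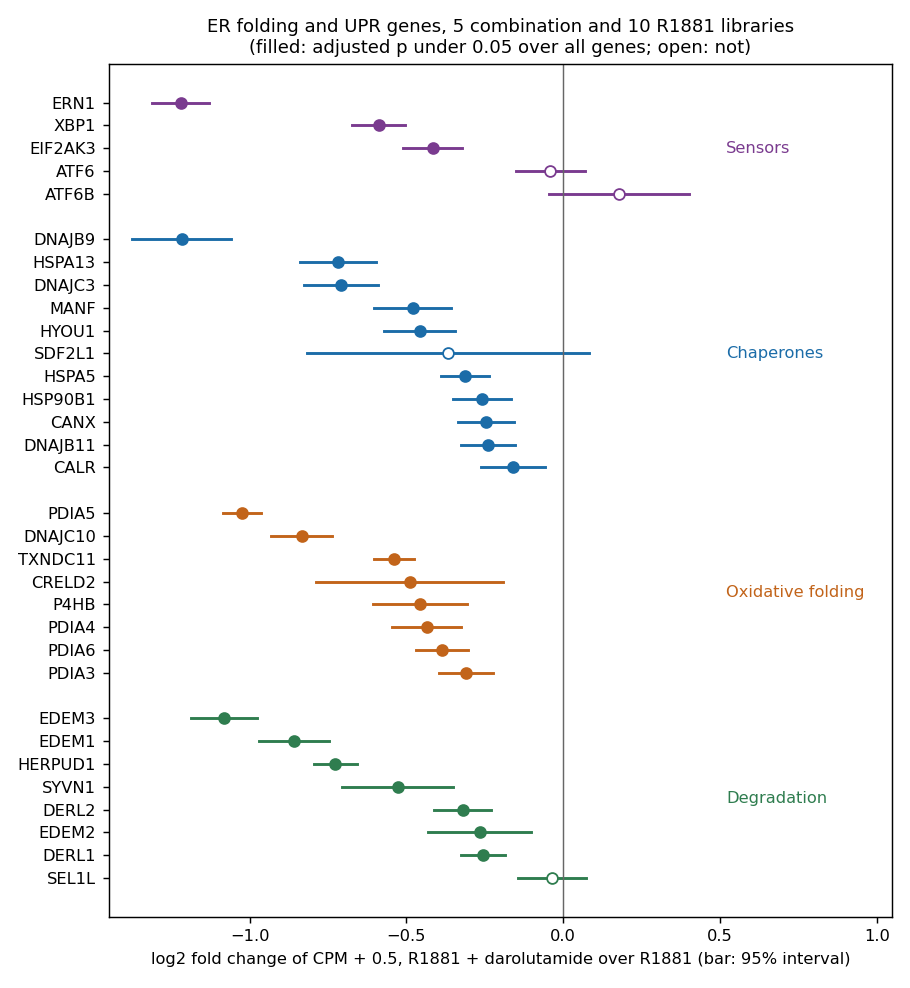
Log2 fold change of CPM + 0.5 for each gene, R1881 with darolutamide over R1881, with its 95% interval as a bar, grouped by arm and ordered by size. Filled points passed limma's test over all genes and open points did not. ERN1, DNAJB9, PDIA5 and EDEM3 lie at or beyond -1, and ATF6B is the only gene with an estimate above 0, joined by ATF6 and SEL1L when reads are scaled by library totals.

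All 4 arms moved in the same direction. Called lower were 3 of 5 sensors (median log2 fold change -0.42), 10 of 11 chaperones (-0.37), 8 of 8 genes of oxidative folding (-0.47) and 7 of 8 of degradation (-0.42). Over all genes, 23.7% were called lower. Averaged over the 32 genes as log2 values relative to the R1881 mean, the combination libraries lay between -0.52 and -0.47 and the R1881 libraries between -0.06 and 0.06. The corresponding averages of the combination libraries were -0.45 to -0.40 for sensors, -0.50 to -0.44 for chaperones, -0.64 to -0.48 for oxidative folding and -0.56 to -0.49 for degradation. The R1881 libraries lay between -0.05 and 0.04 for sensors, -0.10 and 0.10 for chaperones, -0.09 and 0.07 for oxidative folding, and -0.05 and 0.05 for degradation. Thus the size of the fall varied more among the genes of an arm than among the arms.

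**Figure D2:**
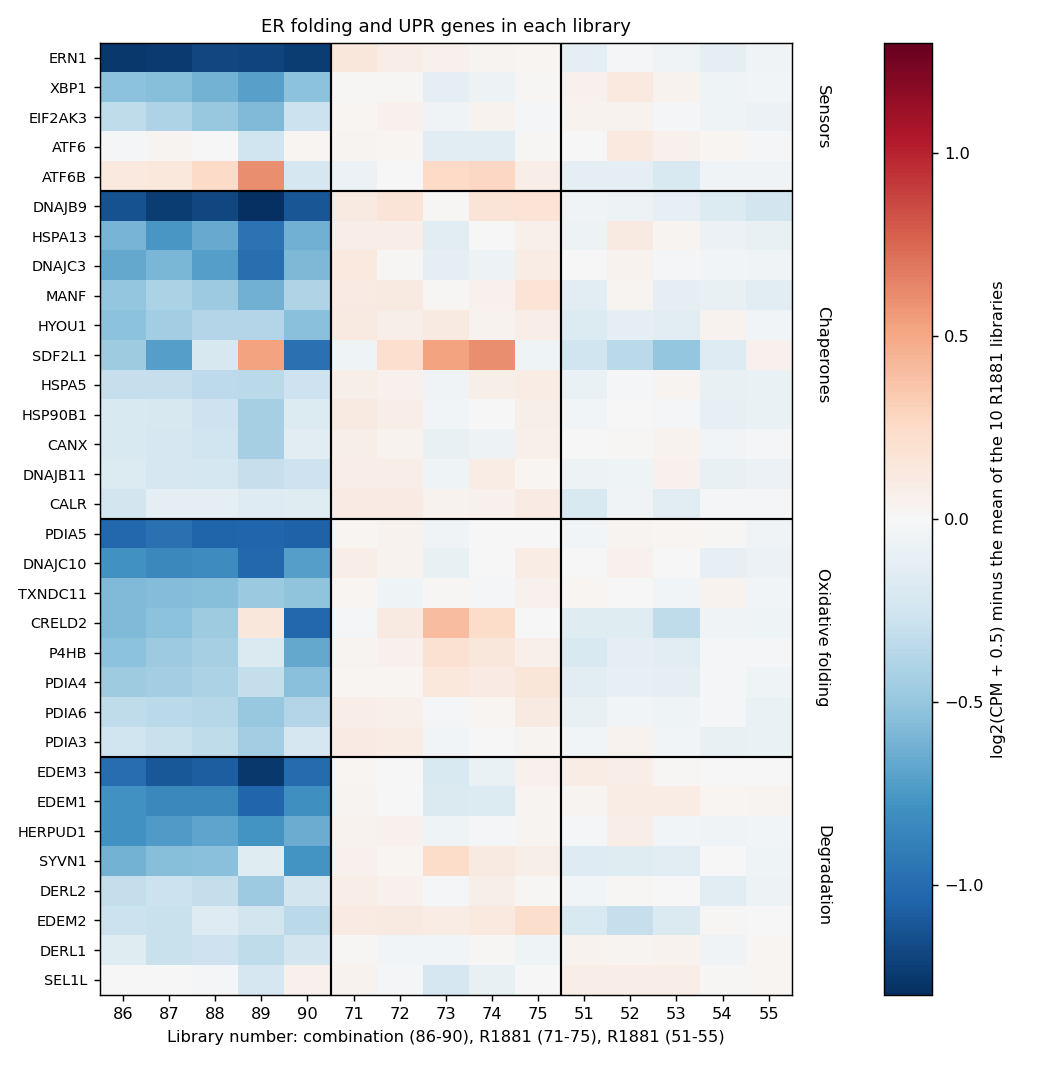
Log2(CPM + 0.5) of each gene in each library minus the mean of the 10 R1881 libraries, with blue for lower and red for higher values. Columns are the combination libraries 86 to 90 and the R1881 libraries 71 to 75 and 51 to 55, and rows are genes by arm. Blue fills the combination columns except in the rows of ATF6, ATF6B and SEL1L and, in library 89, of SDF2L1 and CRELD2.

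The sensors divided by branch. ERN1, which encodes the kinase and endoribonuclease IRE1α, lies on chromosome 17 from 64039080 to 64130819 (GRCh38, minus strand). It measured 47.1, 46.8, 47.2, 48.7 and 49.2 CPM in combination replicates 1 to 5, against a lowest, median and highest value of 103, 112 and 124 CPM in the 10 R1881 libraries. The groups lay far apart, and the spread within the combination was only 1.04 CPM (SD, n = 5). The log2 fold change was -1.22 (standard error 0.043, adjusted p = 9.85e-14 from limma), a fall by 57.1%, and ranked 135 among all genes by p. XBP1, the transcription factor whose mRNA IRE1α splices, lies on chromosome 22 from 28794555 to 28800597. It measured 133, 135, 135, 120.0 and 128 CPM with the combination, against 181, 198 and 214 CPM for the lowest, median and highest R1881 library. No combination library reached the R1881 range (log2 fold change -0.59, standard error 0.040, adjusted p = 1.04e-09). Counts per gene do not separate the spliced from the unspliced XBP1 mRNA.

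EIF2AK3, which encodes PERK, was lower by a smaller amount. Its 5 combination values were 45.9, 48.4, 50.2, 40.9 and 43.1 CPM, and the R1881 libraries lay between 57.9 and 63.2 with a median of 61.2 CPM. The groups did not overlap (log2 fold change -0.42, standard error 0.045, adjusted p = 5.2e-07). ATF6 and ATF6B, the sensors that act after cleavage, did not pass the test. ATF6 measured 81.8, 78.8, 81.0, 66.5 and 80.0 CPM with the combination, within or below the R1881 range of 72.4 to 87.2 CPM with its median of 80.7. Its log2 fold change was -0.04, with a 95% interval from -0.15 to 0.07. ATF6B measured 23.1, 23.0, 18.0, 32.3 and 25.0 CPM with the combination, around the R1881 range of 18.3 to 25.5 CPM with its median of 20.3, and the estimate was 0.18 with an interval from -0.05 to 0.40. Replicate 4 held the highest value of ATF6B and replicate 3 the lowest. Without replicate 3, ATF6B was called higher (0.28, adjusted p = 0.0276).

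Genes that signal around the sensors were given as a list of their own. Of 10 in the table, 4 were lower and 0 higher, where 23.7% of all genes were lower and 22.8% higher, with a median log2 fold change of -0.08. ZBTB8OS, which encodes archease, a cofactor of the tRNA ligase that joins the XBP1 exons in human cells, had 17.3 ± 1.48 CPM with the combination and 24.6 ± 1.74 CPM with R1881 (log2 fold change -0.50, adjusted p = 2.34e-06). MBTPS2, the second protease that cuts ATF6, had 81.4 ± 5.26 with the combination and 109 ± 7.84 CPM with R1881 (-0.42, adjusted p = 4.61e-06). The branch below PERK and the other eIF2α kinases held called genes in both directions. Of its 12 genes, 3 were lower and 4 higher, which is near the shares of all genes (23.7% lower and 22.8% higher), and the median was -0.07. These counts depended on the libraries used. The lower genes numbered 6 without combination replicate 4 and 5 without R1881 replicate 1. The higher genes numbered 2 against R1881 libraries 51 to 55 alone and without combination replicate 1 or 3. The shares of all genes in these alternatives are not given here. PPP1R15B, a subunit of the phosphatase that acts on eIF2α, was lower, with 95.4 ± 7.24 CPM with the combination and 146.8 ± 8.35 CPM with R1881 (-0.62, adjusted p = 8.44e-09). DDIT3, which encodes CHOP, was higher, with 21.0 ± 1.63 with the combination and 14.9 ± 1.15 CPM with R1881 (0.48, adjusted p = 5.03e-06).

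**Figure D3:**
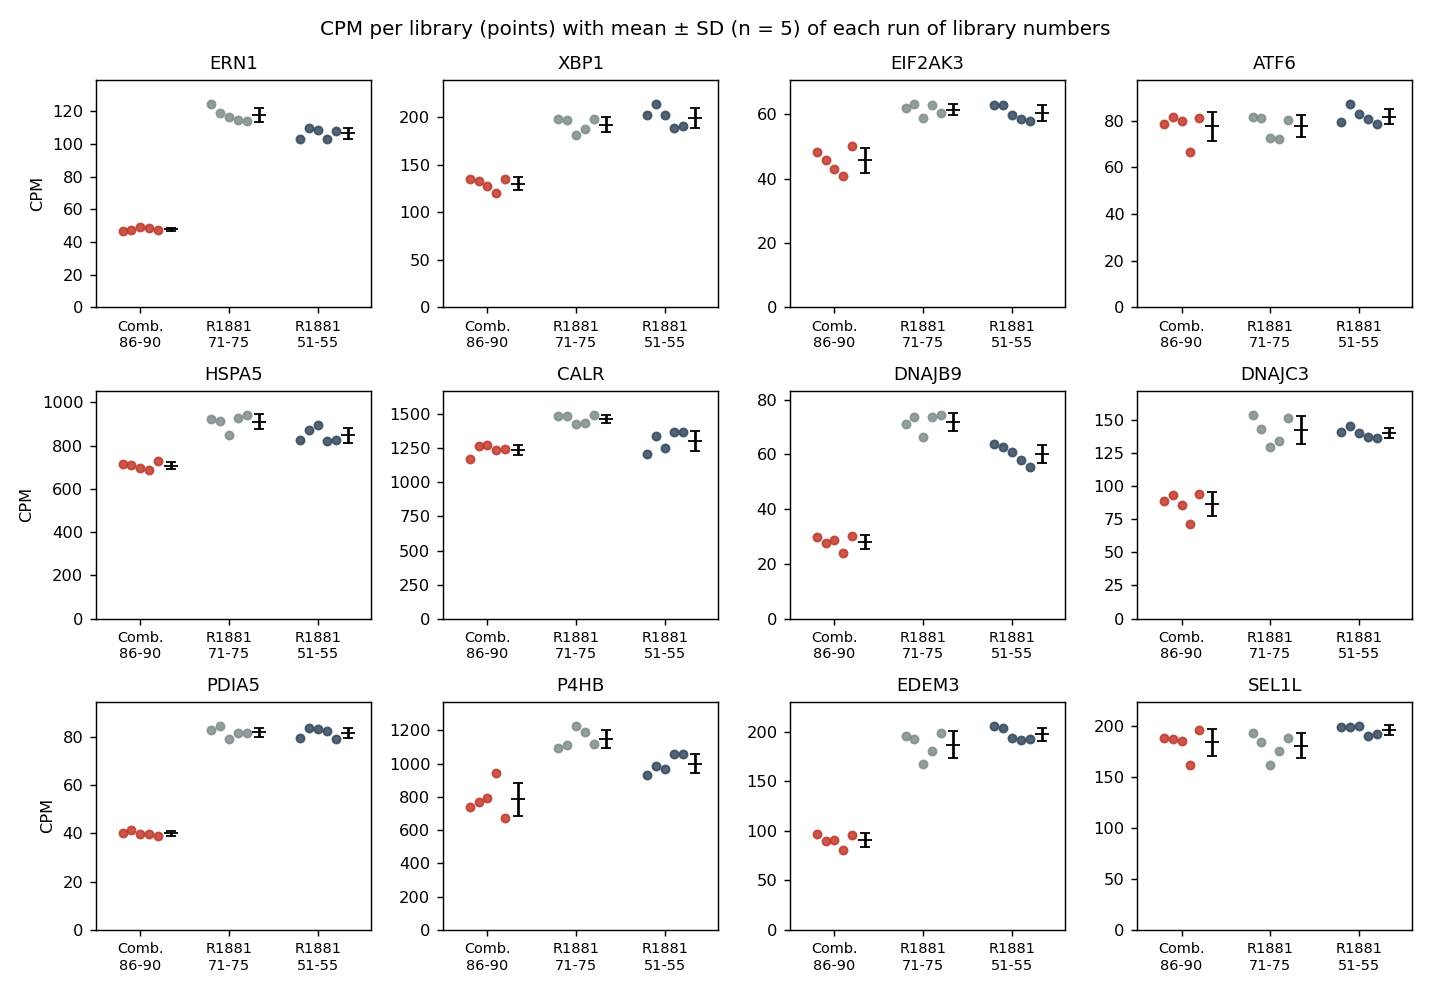
CPM of 12 genes in each library, where a point is a library and bars give the mean ± SD (n = 5) of a run of library numbers, for the combination (86 to 90) and R1881 (71 to 75 and 51 to 55). All axes start at 0. ERN1, DNAJB9, PDIA5 and EDEM3 separate the treatments widely, and ATF6 and SEL1L overlap. The R1881 libraries 71 to 75 lie above 51 to 55 in ERN1, DNAJB9, CALR and P4HB.

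The abundant chaperones fell by small proportions. HSPA5, which encodes the ER Hsp70 BiP, lies on chromosome 9 from 125234853 to 125241382. It measured 712, 713, 728, 687 and 694 CPM with the combination, against 819, 884 and 940.3 CPM for the lowest, median and highest R1881 library. The groups did not overlap, and HSPA5 fell by 0.31 on the log2 scale (standard error 0.037, adjusted p = 1.6e-06), or by 19.5%. HSP90B1, the ER Hsp90 GRP94, had 1069 ± 74.7 CPM (SD, n = 5) with the combination and 1278 ± 64.7 CPM (SD, n = 10) with R1881, a log2 fold change of -0.26. The lectin chaperone CANX, which holds glycoproteins in the membrane, had 739.7 ± 54.8 with the combination and 876 ± 35.3 CPM with R1881 (-0.25). CALR, its soluble counterpart calreticulin, had the smallest change among the genes called. It measured 1265, 1175, 1244, 1235 and 1274 CPM with the combination, and the R1881 libraries ran from 1207 to 1493 CPM with a median of 1399. The ranges overlapped (log2 fold change -0.16, standard error 0.048, adjusted p = 0.011). With reads scaled by library totals CALR was no longer called (-0.09, adjusted p = 0.156).

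The largest falls among the chaperones were in DNAJB9, HSPA13 and DNAJC3. DNAJB9, also known as ERdj4, is a J protein, one of the cofactors that deliver substrates to BiP and stimulate its ATPase. It lies on chromosome 7 from 108569867 to 108574850 and measured 27.6, 29.8, 30.2, 24.0 and 28.6 CPM with the combination, against 55.5, 65.0 and 74.3 CPM for the lowest, median and highest R1881 library. Even the lowest R1881 library lay well above the highest combination library (log2 fold change -1.22, standard error 0.074, adjusted p = 2.55e-10). DNAJC3, which encodes the J protein P58IPK, measured 93.0, 88.3, 93.7, 71.2 and 85.5 CPM with the combination, and the R1881 libraries ran from 129 to 153 CPM with a median of 140.2 (-0.71, adjusted p = 9.49e-09). HSPA13, an Hsp70 of microsomes, had 49.8 ± 4.84 with the combination and 82.0 ± 5.14 CPM with R1881 (-0.72, adjusted p = 1.17e-08). In both genes replicate 4 was the lowest library and the groups did not overlap. DNAJB11 (ERdj3), a further cofactor of BiP, changed less, with 57.0 ± 1.75 with the combination and 67.4 ± 3.59 CPM with R1881 (-0.24, adjusted p = 9.54e-05).

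MANF, a secreted protein that is retained by BiP, had 77.1 ± 4.83 CPM with the combination and 108 ± 8.92 CPM with R1881 (log2 fold change -0.48, adjusted p = 2.01e-06). HYOU1, a nucleotide exchange factor of BiP also called GRP170, had 318 ± 16.9 with the combination and 438 ± 33.9 CPM with R1881 (-0.46, adjusted p = 1.41e-06). Neither overlapped between the groups. SDF2L1, a partner of DNAJB11, was the chaperone that was not called, and it had the fewest reads of the list (66 to 201 per library). It measured 3.55, 4.33, 2.90, 9.05 and 5.24 CPM with the combination, around the R1881 median of 5.89 CPM and range of 4.19 to 9.62. The estimate was -0.37 with a 95% interval from -0.82 to 0.08. Replicate 4 alone lay above the R1881 median, and without it SDF2L1 was called lower (-0.59, adjusted p = 0.00977), as it was with a correction for GC content (-0.39, adjusted p = 0.00148). Of 11 other cofactors of BiP and J proteins, 7 were lower and 1 higher (median -0.19), where 23.7% of all genes were lower and 22.8% higher. With reads scaled by library totals, 4 of the 11 were lower, where 3030 of all 17272 genes were. The J protein DNAJC1 had 35.6 ± 1.11 with the combination and 47.4 ± 2.27 CPM with R1881 (-0.41, adjusted p = 1.47e-07), and SEC63, which couples BiP to the translocon, had 189 ± 14.6 with the combination and 243 ± 13.0 CPM with R1881 (-0.36, adjusted p = 5.92e-06).

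The ER stress response element (ERSE) is the sequence through which ATF6, with the CCAAT-binding factor NF-Y, is known to activate chaperone genes, and it was looked up here to show what these promoters share by sequence. RefSeq promoters (GRCh38.p14, 250 bases before to 50 after a transcript start) were matched for 30 of the 32 genes. The ERSE was searched as CCAAT, 9 bases of any kind and CCACG, on both strands. It was found in a promoter of 7 of the 30 genes (23.3%) and of 25 of all 27305 genes with a promoter (0.0916%). The element is known from chaperone genes, so its higher share in this list is no separate finding. The 7 genes are shown with 5 bases on each side, read in the direction of the element, with its fixed bases in capitals.
HSPA5 (chr9:125241386-125241414, minus strand): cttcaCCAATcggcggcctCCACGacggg
HSP90B1, upstream element (chr12:103930211-103930239, plus strand): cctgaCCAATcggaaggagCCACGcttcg
HSP90B1, downstream element (chr12:103930316-103930344, minus strand): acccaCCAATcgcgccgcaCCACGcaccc
CALR (chr19:12938379-12938407, minus strand): accgaCCAATgatggtcgaCCACGcgtgg
CANX (chr5:179698773-179698801, plus strand): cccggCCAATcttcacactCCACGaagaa
PDIA6 (chr2:10812848-10812876, minus strand): ccggaCCAATgagccgcagCCACGgcttg
CRELD2 (chr22:49918549-49918577, minus strand): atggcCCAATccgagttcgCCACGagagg
XBP1 (chr22:28800598-28800626, minus strand): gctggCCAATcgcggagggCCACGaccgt
The element of HSPA5 began 66 bases before the start, and that of XBP1 52 bases before it. All 7 genes were called lower, with a median log2 fold change of -0.31 and a range from -0.59 to -0.16. Of the 23 genes with a promoter and no ERSE, 19 were lower, with a median of -0.48, and ERN1, DNAJB9, PDIA5 and EDEM3 were among them. Of 9 other genes of the table with an ERSE, 5 were lower (55.6%) and 1 was higher, where 26.5% of all genes matched to a promoter were lower.

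A related form, ERSE-II, was searched as ATTGG, 1 base of any kind and CCACG, on both strands. It was found in a promoter of 3 of the 30 genes and of 19 of all 27305 genes (0.0696%), and the 3 are shown in the same way.
HERPUD1 (chr16:56932020-56932040, plus strand): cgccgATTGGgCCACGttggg
HYOU1, downstream element (chr11:119057269-119057289, plus strand): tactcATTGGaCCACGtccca
HYOU1, upstream element (chr11:119057375-119057395, plus strand): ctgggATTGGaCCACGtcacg
SDF2L1 (chr22:21642109-21642129, minus strand): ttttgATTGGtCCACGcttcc
HYOU1 held the same 11 bases of the element at both places. HERPUD1 had the largest fall of the 3 (log2 fold change -0.73), HYOU1 fell by 0.46 on the log2 scale and SDF2L1 was not called. TGACGTGG, the core to which XBP1 is known to bind, occurred on either strand in a promoter of HYOU1, DNAJC10 and TXNDC11, all 3 of which were lower, and of 253 of all 27305 genes (0.927%). In HYOU1 it overlapped the upstream ERSE-II, and in DNAJC10 it also lay before the start. In TXNDC11 it lay 5 to 12 bases after the start. A match of letters describes the window only.

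All 8 genes of oxidative folding in the table were lower. PDIA5, a protein disulfide isomerase that is known to rearrange the disulfide bonds of ATF6 before its transport, lies on chromosome 3 from 123067025 to 123225227. It measured 41.5, 40.0, 39.1, 39.8 and 39.6 CPM in combination replicates 1 to 5, against a lowest, median and highest R1881 value of 79.3, 82.1 and 84.5 CPM. Both groups were tight, with SDs of 0.893 CPM with the combination and 1.88 CPM with R1881, and did not approach each other. The log2 fold change was -1.02 (standard error 0.029, adjusted p = 4.91e-15), the smallest p of the list. Of its exon bases, 12.1% are shared with SEC22A on the same strand. DNAJC10 (ERdj5), a J protein and reductase that opens disulfide bonds before degradation, measured 118, 122, 129, 104 and 119 CPM with the combination, and the R1881 libraries ran from 196 to 225 CPM with a median of 211. The groups were again far apart (-0.83, standard error 0.046, adjusted p = 6.97e-11).

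TXNDC11, a thioredoxin-domain protein of the ER membrane, had 46.8 ± 1.19 CPM with the combination and 68.2 ± 1.80 CPM with R1881 (log2 fold change -0.54, adjusted p = 8.53e-11). The classical isomerases are abundant and fell by less. PDIA4 had 216 ± 12.8 with the combination and 292 ± 21.8 CPM with R1881 (-0.44, adjusted p = 1.88e-06), PDIA6 had 284 ± 12.4 with the combination and 371 ± 19.0 CPM with R1881 (-0.39, adjusted p = 2.24e-07) and PDIA3, which acts on glycoproteins held by CANX and CALR, had 776 ± 45.7 with the combination and 962 ± 47.2 CPM with R1881 (-0.31, adjusted p = 5.91e-06). None of the 3 overlapped between groups. PDIA3 and HSP90B1 have near-identical pseudogene copies with rows of their own, of which PDIA3P1 averaged 308.5 CPM with the combination and 380.7 CPM with R1881, HSP90B2P 41.8 CPM with the combination and 52.7 CPM with R1881, and HSP90B3P 21.0 CPM with the combination and 25.4 CPM with R1881. How reads were divided between copies is uncertain. In PDIA6, 25.2% of the exon bases are overlapped by ATP6V1C2 on the opposite strand, and the strand setting of the counting is not given in the sources used here.

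P4HB and CRELD2 were lower with overlapping ranges. P4HB, the founding protein disulfide isomerase and a subunit of prolyl 4-hydroxylase, measured 771, 742, 673, 942 and 795 CPM with the combination, against 933, 1078 and 1225 CPM for the lowest, median and highest R1881 library. Replicate 4 alone crossed into the R1881 range (log2 fold change -0.46, standard error 0.071, adjusted p = 4.04e-05). CRELD2, which is induced by ER stress, measured 20.5, 19.9, 14.5, 33.1 and 21.6 CPM with the combination, and the R1881 libraries ran from 23.8 to 39.7 CPM with a median of 29.3. Here too replicate 4 was the only combination library within the R1881 range, and replicate 3 was the lowest (-0.49, standard error 0.141, adjusted p = 0.00861).

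Other enzymes of disulfide formation were more mixed. Of 17 ER oxidases and further family members, 9 were lower and 3 higher, with a median of -0.14, where 23.7% of all genes were lower and 22.8% higher. PRDX4, an ER peroxiredoxin that uses hydrogen peroxide to form disulfides, had 90.5 ± 3.17 CPM with the combination and 122.6 ± 4.60 CPM with R1881 (log2 fold change -0.44, adjusted p = 6.49e-09). ERO1A, the oxidase that recharges P4HB, had 24.7 ± 2.31 with the combination and 39.7 ± 2.09 CPM with R1881 (-0.68, adjusted p = 1.25e-08). Of 8 genes of glycan-dependent folding, 4 were lower and 0 higher (median -0.14), beside the same shares of all genes. They included CLGN, a homologue of CANX that is known from mouse testis, with 79.2 ± 6.77 with the combination and 147 ± 14.2 CPM with R1881 (-0.89, adjusted p = 6.91e-09), and MLEC, a lectin for diglucosylated glycans, with 606 ± 36.4 with the combination and 765 ± 36.3 CPM with R1881 (-0.34, adjusted p = 2.14e-06). Of 8 prolyl isomerases of the ER, 3 were lower and 1 higher (median -0.23), a count close to the shares of all genes (23.7% lower and 22.8% higher). FKBP9 was the higher one, with 53.7 ± 2.24 with the combination and 39.9 ± 1.74 CPM with R1881 (0.42, adjusted p = 8.37e-08), and PPIB (cyclophilin B) had 400.3 ± 37.7 with the combination and 590.3 ± 53.4 CPM with R1881 (-0.56, adjusted p = 1.61e-06).

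**Figure D4:**
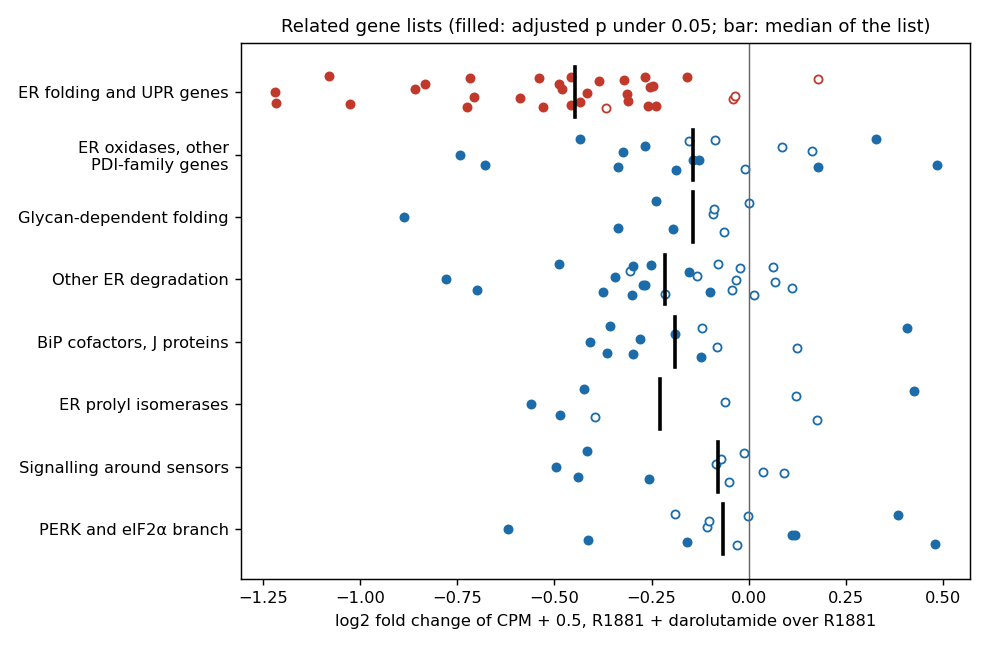
Log2 fold change of CPM + 0.5 of each gene, R1881 with darolutamide over R1881, for the 32 ER genes (red) and for related lists (blue). Filled points passed limma's test over all genes, open points did not, and the bar is the median of the list. The medians lie at -0.45 for the 32 genes and between -0.23 and -0.07 for the other lists.

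In ER-associated degradation the EDEM genes covered the widest range. These encode proteins that trim mannose from misfolded glycoproteins and mark them for removal. EDEM3, on chromosome 1 from 184690237 to 184754907, measured 89.5, 96.7, 96.1, 80.3 and 91.1 CPM with the combination, against 167, 193 and 206 CPM for the lowest, median and highest R1881 library. The groups were far apart (log2 fold change -1.08, standard error 0.050, adjusted p = 4.23e-12). EDEM1 measured 77.2, 79.8, 79.1, 67.3 and 77.2 CPM with the combination, and the R1881 libraries ran from 121 to 148 CPM with a median of 142 (-0.86, standard error 0.053, adjusted p = 2.74e-10). Again every combination library was below the R1881 range. EDEM2 measured 17.3, 17.4, 16.5, 18.0 and 18.9 CPM with the combination, and its R1881 range of 17.2 to 25.0 CPM (median 22.1) included 4 of these values (-0.27, standard error 0.078, adjusted p = 0.00909).

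HERPUD1, a membrane protein that assembles the retrotranslocation complex and is itself strongly induced by ER stress, lies on chromosome 16 from 56932142 to 56944864. It measured 119, 115, 127, 116 and 123 CPM with the combination, against 191, 195 and 211 CPM for the lowest, median and highest R1881 library. The groups did not overlap (log2 fold change -0.73, standard error 0.033, adjusted p = 4.02e-12). SYVN1 and SEL1L encode the ubiquitin ligase HRD1 and the adaptor that stabilises it, and the ligase alone was called. SYVN1 measured 44.3, 42.5, 37.8, 58.3 and 44.6 CPM with the combination, and only replicate 4 entered the R1881 range of 57.9 to 76.9 CPM, whose median was 65.8 (-0.53, standard error 0.083, adjusted p = 4.63e-05). SEL1L measured 188, 189, 196, 162 and 186 CPM with the combination, within or just under the R1881 range of 162 to 200.0 CPM, whose median was 191. Its log2 fold change was -0.04, with a 95% interval from -0.14 to 0.07. The derlins DERL1 and DERL2, which form part of the channel, fell by small amounts without overlap. DERL1 had 86.5 ± 3.99 with the combination and 103 ± 2.96 CPM with R1881 (-0.26, adjusted p = 4.58e-06), and DERL2 had 49.7 ± 2.99 with the combination and 62.1 ± 2.82 CPM with R1881 (-0.32, adjusted p = 7.65e-06).

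Of 23 further genes of ER degradation, 12 were lower and 0 higher, where 23.7% of all genes were lower and 22.8% higher. The median log2 fold change was -0.22. Among them the derlin DERL3, with 25 to 56 reads per library, was not called and its ranges overlapped (-0.31, adjusted p = 0.0949 from limma). With reads scaled by library totals, 3 of the 23 were higher, where 5326 of all 17272 genes were. VIMP (SELENOS), a selenoprotein that binds the ATPase VCP at the ER membrane, had 44.2 ± 1.35 CPM with the combination and 72.2 ± 4.33 CPM with R1881 (-0.70, adjusted p = 3.95e-10). UBE2J1, the ubiquitin-conjugating enzyme of the HRD1 complex, had 70.4 ± 6.43 with the combination and 120.9 ± 6.48 CPM with R1881 (-0.78, adjusted p = 8.53e-10).

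The level of a gene and its fall were compared per length of exon. The 10 genes of highest level in R1881 libraries (63.7 to 495 CPM per kb of exon, led by CALR and HSPA5) had log2 fold changes from -0.59 to -0.16, with a median of -0.35. The 10 of lowest level (2.95 to 10.4 CPM per kb) had log2 fold changes from -1.22 to 0.18, with a median of -0.39. Thus the fold changes were spread more widely among the genes of lowest level, which included ERN1 and EDEM3 as well as ATF6 and ATF6B. ERN1 had 2.50 CPM per kb with the combination and 5.86 with R1881, and HSPA5 had 108 with the combination and 135 with R1881.

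Combination replicates 3 and 4 held most of the extreme values within the combination. Replicate 4 was the lowest of the 5 in 19 of the 32 genes and the highest in 8, and replicate 3 was the highest in 13 and the lowest in 9. Replicate 4 was high in SDF2L1, CRELD2, P4HB, SYVN1 and ATF6B. Replicates 3 and 4 were taken out one at a time, and 28 genes were lower without replicate 3 and 29 without replicate 4. The shares of all genes called in each are not given here, and the difference between these counts was not tested.

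The R1881 libraries also differed among themselves in these genes. Between the libraries 71 to 75 and 51 to 55, 26 of the 32 genes had an estimate above 0, with a median log2 difference of 0.09. In 9 the difference was called higher in 71 to 75, where 0.805% of all genes were, and 16 were higher at an unadjusted p under 0.05. None was called lower in 71 to 75, with 2 at an unadjusted p under 0.05 in limma and 0 called by edgeR or by DESeq2, where limma called 2.29% of all genes lower. The 9 were ERN1, DNAJB9, CALR, MANF, HYOU1, PDIA4, P4HB, SYVN1 and EDEM2. DNAJB9 had 71.8 CPM in 71 to 75 and 60.1 CPM in 51 to 55 (0.26, adjusted p = 0.0158), and P4HB had 1148 CPM in 71 to 75 and 1001 CPM in 51 to 55 (0.20, adjusted p = 0.0293). The number called depended on single libraries. It was 0 without R1881 replicate 5 or 7, 1 without replicate 9, 2 without replicate 10 and 4 without replicate 8. It was 5 without replicate 2, 6 without replicate 4, 8 without replicate 6, 9 without replicate 1 and 11 without replicate 3. The calls over all genes changed as well. Higher and lower genes numbered 139 and 396 with all libraries, and 307 and 642 without replicate 3. They numbered 30 and 56 without replicate 5, 22 and 51 without replicate 7, and 20 and 30 without replicate 9. Without replicate 10 they numbered 23 and 36. The androgen-regulated genes KLK3 and KLK2 were higher in 71 to 75 as well (0.35 and 0.40), and the part of either difference in the other was not tested.

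The fall was found against each of the runs. Against 71 to 75, 28 of the 32 genes were lower (median log2 fold change -0.54), and against 51 to 55, 25 were (median -0.35), with CALR, CRELD2 and EDEM2 no longer called. Over all genes the medians were -0.003 against 71 to 75 and 0.004 against 51 to 55. The shares of all genes called in each are not given here, and the difference between the counts was not tested. These comparisons share the combination libraries. In 25 genes the estimate was further from 0 against 71 to 75. ERN1 measured -1.29 against 71 to 75 and -1.15 against 51 to 55, HSPA5 -0.36 against 71 to 75 and -0.26 against 51 to 55, and EDEM2 -0.40 against 71 to 75 and -0.13 against 51 to 55. PDIA5 (-1.03 against 71 to 75 and -1.02 against 51 to 55) and TXNDC11 (-0.54 against each) moved little. EDEM3 was further from 0 against 51 to 55, with -1.04 against 71 to 75 and -1.12 against 51 to 55, and so was EDEM1, with -0.80 against 71 to 75 and -0.92 against 51 to 55.

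**Figure D5:**
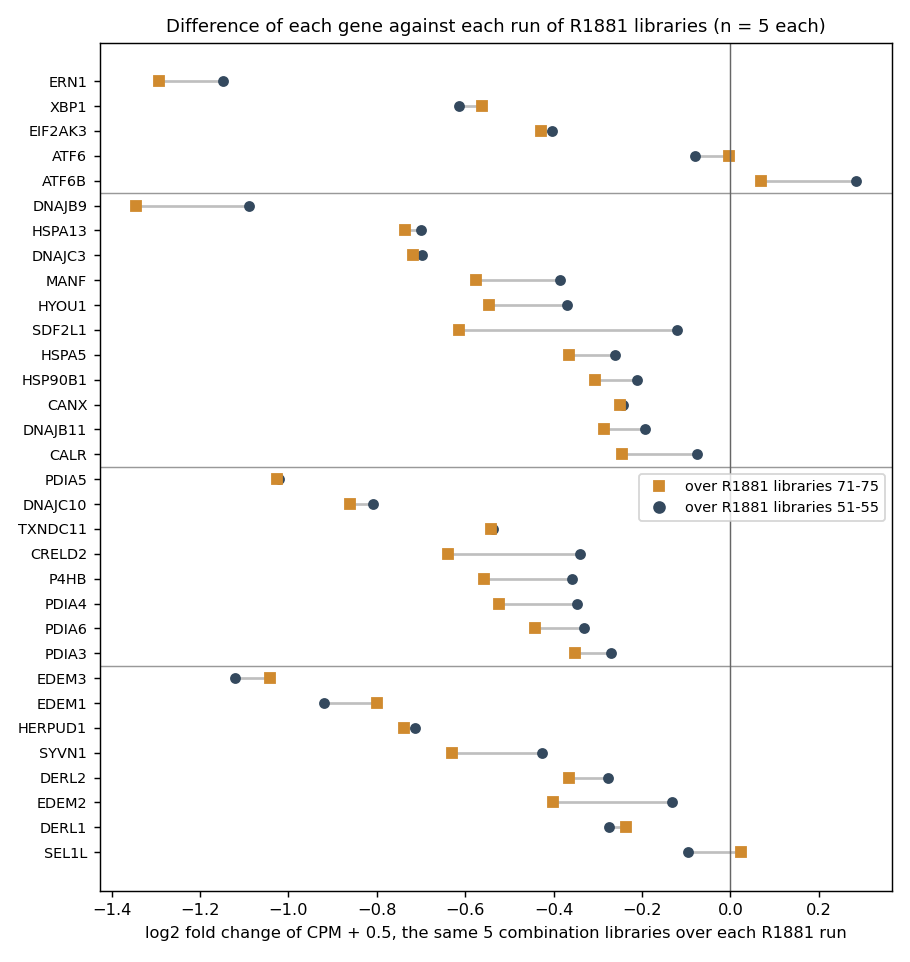
Log2 fold change of CPM + 0.5 of each gene, the same 5 combination libraries over the R1881 libraries 71 to 75 (squares) and 51 to 55 (circles), n = 5 each. In 25 of 32 genes the square is further from 0, with DNAJB9, SDF2L1, CRELD2 and EDEM2 among those with a wide gap.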

How the data were processed

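The authors sequenced 50-base single-end reads of poly-A RNA, aligned them to GRCh38 with STAR and counted them per gene with featureCounts; the gene filter and the strand setting are not given in the sources used here. The deposited values are a scaled signal close to CPM: all were whole reads (tolerance 0.001) divided by 1 factor per library, with 22177686 reads per library on average. Samples were grouped by their titles. The members, lists and tests were chosen with earlier results of these data known.

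Limma 3.58.1 (trend, R 4.3.3) was fitted on log2(CPM + 0.5) over all 17272 genes without a filter, with Benjamini-Hochberg adjusted p under 0.05, 5 combination against 10 R1881 libraries. The pseudocount understates the change of low genes. The p-values reflect only how far these libraries scatter, which the study calls biological replicates. The lowest chi-square per degree of freedom among 55 pairs of libraries of 1 group was 1.65, so none was counted as a duplicate. The script was tested on simulated data.

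Named were all list genes in the table, up to 2 genes of smallest p of each related list that passed, KLK3 and FKBP5. The markers, KLK2 and DERL3 were named after their values were seen. One luminal marker is not reported here. Coordinates are those of GENCODE version 44 on GRCh38. Alternatives were other pseudocounts, a minimum mean of 1 CPM, edgeR 4.0.16 and DESeq2 1.42.0 on the recovered reads, library totals, a replicate block, each R1881 run alone, a term for the R1881 runs, a GC correction over 13960 genes, and leaving out each library or combination replicates 3 and 4.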

Additional observations from a re-analysis of the deposited data

Results flagged for a closer look

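A single library far from the rest of its group was found in 5 of 110 groups tested over 55 named genes, where chance gives about 1 in 20. In 4 of the 5 the library was combination replicate 4. ATF6 was 66.5 CPM there and 78.8 to 81.8 CPM in the other combination libraries, and EDEM1 was 67.3 CPM against 77.2 to 79.8 CPM. MBTPS2 was 72.3 CPM against 82.2 to 85.0 CPM, and FKBP5 was 133 CPM against 154 to 162 CPM. The fifth was KRT14 in combination replicate 1, at 0.878 CPM against 0.528 to 0.607 CPM in the others.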

How the results depend on the processing

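The number of the 32 genes called lower lay between 25 and 29 under every alternative run. It was 28 by edgeR, by DESeq2 and with the replicate block, 27 with library totals and 29 with the GC correction. Of the 28 genes called, 25 were called in each alternative. Except with library totals, the shares of all genes called lower under these alternatives are not given here. The number called higher was 0 except for 1 with the GC correction (ATF6B, 0.22, adjusted p = 0.000376 from limma), and 0 to 1 with single libraries left out. ATF6 reversed to 0.0302 with library totals and to 0.00981 without combination replicates 3 and 4, and ran from -0.0607 to 0.0135 with single libraries left out, the last without replicate 4. SEL1L reversed to 0.0359 with library totals and to 0.0237 against 71 to 75 alone, and ran from -0.0596 to 0.0106 with single libraries left out, again above 0 without replicate 4. Neither gene was called in any of these. Of the 32 genes, those called between the R1881 runs numbered 14 by DESeq2, 19 with the GC correction and 0 to 11 with single libraries left out. Over all genes, 424 were higher and 542 lower in 71 to 75 by DESeq2, and 406 and 477 with the GC correction. With library totals the median log2 fold change of all genes was 0.07, and 3030 genes were lower and 5326 higher, against 4098 and 3946 as deposited; the median of the 32 genes was then -0.37. Libraries of the same replicate number did not pair (correlations of deviations -0.14 to 0.34, 1 of 5 closest to its own number). No run of libraries held both treatments, so a run term for the combination could not be fitted. SDF2L1, with 66 to 201 reads per library, was called with the GC correction and without combination replicate 4.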
